A study of Mus musculus with 4 samples.

Results

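Piezo1, Piezo2, Tmem63a, Tmem63b, Tmem63c, Tmem120a, Tmem150c and Stoml3 are genes of established or proposed mechanotransduction channels, together with a protein that tunes one of them. The set was chosen by symbol, and all 8 were found among the 31053 genes of each deposited matrix. Their raw counts were followed in single sensory neurons of lumbar dorsal root ganglia (DRG), across neuron subtypes, between sham surgery and CCI (a chronic constriction injury made on the sciatic nerve), and between injured neurons and their neighbours. All mice were 7 to 8 weeks old, on a C57BL/6 background, and carried 1 PirtEGFPf allele, in which a farnesylated green fluorescent protein (GFP) takes the place of the Pirt coding sequence. The sham mice carry it too, and only neurons that use the Pirt promoter can be sorted. There was 1 library per sex and surgery, 4 in all, and pairs of values are given with the male library first. Each was 1 pool of 20 ganglia from 5 mice, taken 7 days after bilateral surgery and sorted for GFP. Since mice of a litter got the same operation, litter and surgery cannot be told apart.

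Piezo1 and Piezo2 are large cation channels that open when the membrane is stretched or indented. Piezo2 is the channel of light touch and of body position sense in sensory neurons, and Piezo1 is best known from blood vessels and red cells. Tmem63a, Tmem63b and Tmem63c belong to the OSCA/TMEM63 family, related to channels that plants open under osmotic stress. Tmem120a (also called TACAN) and Tmem150c (also called Tentonin 3) were proposed as parts of mechanically activated currents, and whether they form channels themselves is disputed. Stoml3 is a stomatin-domain protein that makes mechanically gated channels in touch neurons more sensitive.

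After filters on genes, mitochondrial counts and doublets, 15688 cells remained (3469 and 5538 in the sham libraries, 2946 and 3735 in the CCI libraries), and the deposited libraries held between 195684124 and 237069156 unique molecular identifier (UMI) counts. Of these cells 15097 were neurons, grouped by clustering without the 8 genes and named from markers: NP for nonpeptidergic nociceptors, PEP for peptidergic nociceptors, NF for neurofilament-rich large neurons, cLTMR for low-threshold mechanoreceptors with C fibres, and CCI-ind for clusters seen mostly after CCI. The names are rebuilt here, so each carries "-like". A neuron was called Sprr1a-positive, the mark of an injured neuron, when its normalized Sprr1a value was above 1. Levels are given as CPM, the UMIs of a gene per 1000000 UMIs of the summed cells. A gene was called changed at an adjusted p under 0.05 and an absolute log2 fold change above 0.5 (edgeR quasi-likelihood test on sums per library). Each surgery had 2 replicates, 1 library of either sex, so the spread includes sex, and p-values measure only the spread between these pools. A UMI of the neuronal marker Tubb3 was found in at least 99.9% of the neurons of every library, and one of Pirt in at least 98.3%. Surgery matched the injury marks: in all neurons Sprr1a was at 45.6 and 97.6 CPM in the sham libraries and at 1928 and 1441 CPM in the CCI libraries (log2 fold change 4.61). Between 215 and 513 cell barcodes were shared by each pair of libraries, most of them with very unequal depth, but only 36 kept cells had a barcode kept in more than 1 library.

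Piezo2 differed widely across subtypes. In Sprr1a-negative neurons of the sham libraries it reached 565 CPM in the male and 539 CPM in the female library in cLTMR-like neurons, a mean of 552 ± 18.5 (SD, n = 2). NF1-like neurons followed with 302 and 299 CPM, NF2-like neurons with 248 and 265 CPM, and NP2-like neurons, which express Mrgprd, with 226 and 209 CPM. These 4 classes stood apart from one another, since the ranges of their 2 libraries did not overlap. A second tier lay well below: PEP2-like (mean 86.1 CPM), PEP1-like (77.7 CPM), NP3-like (63.0 CPM), NP1-like (45.9 CPM) and PEP3/4-like neurons (44.5 CPM). The last pair, NP1-like and PEP3/4-like neurons, overlapped. Piezo2 was thus highest in the touch-sensitive C-fibre class and in the large neurofilament-rich classes, and it was also high in the Mrgprd class.

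At the bottom were the PEP5-like neurons, which express the cold receptor Trpm8, with 1.36 and 2.74 CPM of Piezo2. Satellite glial cell (SGC)-like cells of the same libraries had 4.66 and 10.3 CPM. With every cell thinned to 2000 UMIs, 0.333% and 1.15% of PEP5-like neurons and 1.66% and 1.40% of SGC-like cells held a Piezo2 UMI. These shares rest on few cells. Piezo2 in PEP5-like neurons was thus no higher than in SGC-like cells. Whether the counts of either were background was not tested.

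The NF1-like class was made of a pair of clusters with different Piezo2 levels. In the cluster led by Cadps2 and Ntng1, with Ntrk2 (the BDNF receptor) among its leading genes, Piezo2 was at 389 and 381 CPM in the sham libraries. In the cluster led by Pvalb, a marker of proprioceptors, it was at 204 and 207 CPM. The libraries of the one cluster did not overlap with those of the other.

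**Figure D1:**
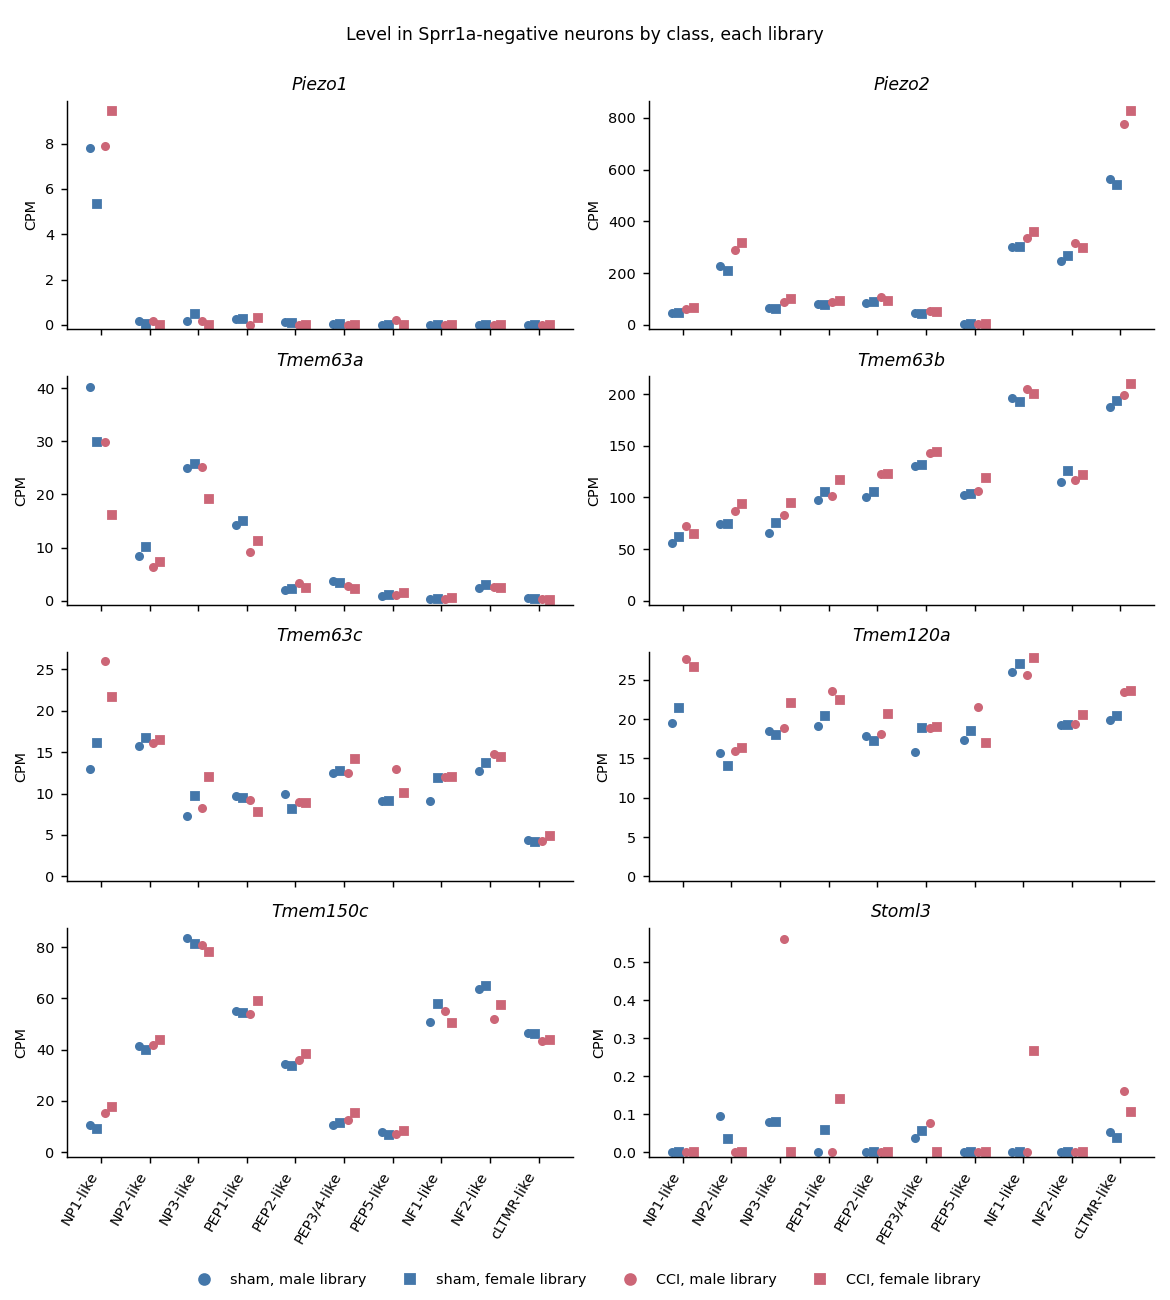
Level of each of the 8 genes in Sprr1a-negative neurons of 10 classes. The y axes give CPM and each point is 1 library, with sham in blue, CCI in red, male libraries as circles and female libraries as squares. Piezo2 is highest in cLTMR-like neurons (565 and 539 CPM in sham), Piezo1 stands out in NP1-like neurons only (7.78 and 5.35 CPM in sham), and Tmem63a runs from high in NP1-like to near 0 in NF1-like neurons.

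Piezo1 was scarce, and most of what there was lay in 1 class. Sprr1a-negative NP1-like neurons, the itch-related class that expresses Nppb and Sst, had 7.78 and 5.35 CPM in the sham libraries. A Piezo1 UMI was found in 28.9% of 83 and 20.6% of 68 such cells (exact 95% intervals 19.5 to 39.9% and 11.7 to 32.1%, which cover counting error only). NP3-like neurons came next with a mean of only 0.320 CPM, and overlapped with PEP1-like neurons at 0.258 CPM. No Piezo1 UMI at all was counted in the sham cLTMR-like, NF1-like, NF2-like or PEP5-like neurons, so the touch classes that were rich in Piezo2 gave no Piezo1 count. A count of 0 allows up to 3 counts, or 0.158 and 0.114 CPM in the cLTMR-like sums and 0.521 and 0.576 CPM in the smaller NF2-like sums.

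The 3 members of the Tmem63 family had different patterns. Tmem63a was highest in NP1-like (40.2 and 29.8 CPM), NP3-like (24.9 and 25.8 CPM) and PEP1-like neurons (14.3 and 15.0 CPM), and it was nearly absent from cLTMR-like (mean 0.401 CPM) and NF1-like neurons (0.303 CPM). Tmem63b ran the other way, with 196 and 192 CPM in NF1-like, 187 and 193 CPM in cLTMR-like and only 56.0 and 61.9 CPM in NP1-like neurons. The classes at the top of the one order were thus at the bottom of the other. Tmem63c lay between a mean of 16.2 CPM in NP2-like and 4.26 CPM in cLTMR-like neurons, and most neighbours in its order overlapped. SGC-like cells also held Tmem63a (26.1 and 22.1 CPM in sham) and Tmem63b (93.1 and 73.8 CPM), so these genes are not confined to neurons.

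The starts of these 3 genes, which moved in different directions after injury, are shown as 250 bases before to 50 bases after each RefSeq transcription start (GRCm38.p6), 5′ to 3′ on the gene's strand. Capitals mark the GC box, GGGCGG or its complement CCGCCC, which occurs in 35.7% of 32851 such windows of all genes. Tmem63a lies on chromosome 1 (chr1:180942268-180942567, plus strand), Tmem63b on chromosome 17 (chr17:45686169-45686468, minus strand), and Tmem63c on chromosome 12 (plus strand) with starts at chr12:87021090-87021389 and chr12:87026042-87026341.
Tmem63a: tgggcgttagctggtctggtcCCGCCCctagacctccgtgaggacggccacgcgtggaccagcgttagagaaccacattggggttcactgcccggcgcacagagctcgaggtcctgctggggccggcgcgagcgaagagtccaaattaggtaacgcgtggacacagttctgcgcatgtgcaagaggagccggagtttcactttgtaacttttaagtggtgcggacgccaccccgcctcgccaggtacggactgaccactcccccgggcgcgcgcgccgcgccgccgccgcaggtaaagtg
Tmem63b: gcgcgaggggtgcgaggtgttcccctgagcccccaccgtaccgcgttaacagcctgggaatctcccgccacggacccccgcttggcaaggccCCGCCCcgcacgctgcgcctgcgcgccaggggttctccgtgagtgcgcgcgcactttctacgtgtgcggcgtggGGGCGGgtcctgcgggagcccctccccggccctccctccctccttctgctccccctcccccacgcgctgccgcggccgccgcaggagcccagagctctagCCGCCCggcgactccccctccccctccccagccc
Tmem63c, first start: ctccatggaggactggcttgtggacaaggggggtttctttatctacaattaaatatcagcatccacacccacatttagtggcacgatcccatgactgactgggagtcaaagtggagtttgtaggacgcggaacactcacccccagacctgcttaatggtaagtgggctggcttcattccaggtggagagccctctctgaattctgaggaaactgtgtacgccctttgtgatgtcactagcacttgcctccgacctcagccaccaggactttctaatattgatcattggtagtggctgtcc
Tmem63c, second start: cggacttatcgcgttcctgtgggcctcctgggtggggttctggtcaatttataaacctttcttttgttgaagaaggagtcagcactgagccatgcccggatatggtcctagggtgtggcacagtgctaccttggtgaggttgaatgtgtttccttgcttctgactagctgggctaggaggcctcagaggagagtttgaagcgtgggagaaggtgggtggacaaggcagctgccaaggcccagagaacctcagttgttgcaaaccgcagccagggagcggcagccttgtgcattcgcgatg
Tmem63a had 1 GC box and 33 CG dinucleotides and Tmem63b had 3 and 34, whereas the Tmem63c windows had no GC box and 5 and 9 CG dinucleotides, against a median of 7 over all windows. The AP-1 site TGACTCA (or TGAGTCA), found in 5.20% of all windows, and the cyclic AMP response element TGACGTCA, found in 1.79%, were in none of them. The same held for the windows of Piezo1, Tmem120a, Tmem150c and Stoml3.

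Tmem120a was the most even of the set. Its mean lay between 14.9 CPM in NP2-like and 26.5 CPM in NF1-like neurons, and most neighbouring classes overlapped. Tmem150c was graded, with 83.6 and 81.3 CPM in NP3-like, 63.7 and 64.9 CPM in NF2-like and 55.3 and 54.4 CPM in PEP1-like neurons. It was low in PEP3/4-like (mean 10.9 CPM), NP1-like (9.90 CPM) and PEP5-like neurons (7.32 CPM). Stoml3, the modulator, was at the limit of detection. Its 6 and 7 UMIs in all sham neurons and 8 and 6 in all CCI neurons were too few for any test.

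The genes whose level over the 10 classes in sham was most like that of each member were ranked by Pearson's r of log2(CPM + 1), over 8350 genes. The classes share libraries, and these values are a description. Piezo1 was most like 9230105E05Rik (r = 0.993), the neuropeptide gene Sst (0.988) and the itch receptor gene Il31ra (0.983), genes of the NP1-like class. Piezo2 was most like the acid-sensing channel gene Asic2 (0.917), Anapc10 (0.906) and the potassium channel gene Kcnd1 (0.903). Among the genes most like Tmem63a were Osmr (0.969), the oncostatin M receptor gene that is paired with Il31ra, and Nrbf2 (0.954). Tmem63b was closest to Tmem53 (0.950), Zbtb45 (0.941) and Fuca2 (0.939), and Tmem63c to Anxa7 (0.988), Trappc9 (0.877) and Rap1gap2 (0.873). The genes nearest to Tmem120a were Ptp4a2 (0.928), Pacsin2 (0.923) and Slc38a2 (0.887), and those nearest to Tmem150c were Tmem208 (0.922), Efcab10 (0.883) and Plagl1 (0.872). For Stoml3 they were Rab27b (0.906), Ptgdr (0.878) and St6galnac3 (0.876), on a handful of UMIs.

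Across all neurons, the comparison of CCI with sham asks how the ganglion as a whole changed. Of the 7 members that could be tested, 3 passed, against 27.8% of 17231 genes. Piezo1 and Tmem63c rose and Tmem63a fell. Tmem63a went from 7.90 and 7.44 CPM in sham to 3.20 and 3.13 CPM in CCI. Both CCI libraries were below both sham libraries, with a log2 fold change of -1.22 ± 0.07 (SE, adjusted p = 3.22e-05). Tmem63c went from 10.7 and 11.1 CPM to 18.2 and 18.5 CPM, again without overlap (log2 fold change 0.81 ± 0.06, adjusted p = 5.91e-05).

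The other members moved little. Tmem120a went from 18.2 and 18.9 CPM to 23.8 and 22.6 CPM, a log2 fold change of 0.38 that passed the p threshold (adjusted p = 0.00172) but not the limit of 0.5. Piezo2 was at 176 and 166 CPM in sham and at 131 and 145 CPM in CCI (log2 fold change -0.25 ± 0.06, adjusted p = 0.0148), so the CCI libraries were lower without passing the size limit. Tmem150c had a log2 fold change of -0.19 (adjusted p = 0.00537) and Tmem63b of 0.08 (adjusted p = 0.262).

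The mix of neurons differed between the groups: CCI-ind-like clusters held 1.37 and 2.49% of sham but 45.2 and 44.0% of CCI neurons, and the share of cLTMR-like neurons was 10.8 and 12.5% in sham and 3.90 and 5.48% in CCI. In such sums, fewer cells of a type and less RNA per cell cannot be told apart. Without the NP1-like and CCI-ind-like neurons, Piezo2 was at 181 and 171 CPM in sham and at 197 and 224 CPM in CCI, so the order of the groups was the other way round. Tmem63a kept its order there, with 7.21 and 7.34 CPM in sham and 4.91 and 4.76 CPM in CCI. Markers of other cells moved as well. The summed level of 6 SGC markers in neurons was 1253 and 1622 CPM in sham and 859 and 1000 CPM in CCI, and that of 5 endothelial markers was 0.541 and 0.630 CPM in sham and 2.68 and 3.53 CPM in CCI. In CCI the endothelial sum was 0.732 and 0.871 CPM in Sprr1a-negative and 4.34 and 6.16 CPM in Sprr1a-positive neurons. In Sprr1a-positive NP1-like cells of CCI it was 1.75 and 1.59 CPM, and in Sprr1a-negative ones 0 and 2.22 CPM. Over all neurons, every marker of both lists had a UMI in every library. The part of these markers in the results on Tmem63a, which SGC-like cells express, and on Piezo1, which endothelial cells express, was not tested.

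Piezo1, rare in neurons as a whole, was called higher with CCI. It rose from 0.283 and 0.217 CPM in sham to 0.619 and 0.633 CPM in CCI (log2 fold change 1.39 ± 0.21, adjusted p = 0.00148), on 46, 41, 101 and 101 UMIs. In the sham libraries 30 and 19 of these UMIs came from NP1-like neurons, and in the CCI libraries 52 and 55. CCI-ind-like clusters gave 0 and 4 in sham and 44 and 42 in CCI. All remaining neurons gave 16 and 18 UMIs in sham and 5 and 4 in CCI, so the higher total lay in NP1-like and CCI-ind-like neurons alone.

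As a whole, Sprr1a-positive CCI neurons also had more Piezo1 than Sprr1a-negative sham neurons (0.919 and 0.996 against 0.288 and 0.180 CPM, log2 fold change 2.19, adjusted p = 0.000105). Within NP1-like neurons the level of Piezo1 itself was not called changed. Sprr1a-negative cells of the CCI libraries had 7.90 and 9.43 CPM (log2 fold change against sham 0.35 ± 0.38, adjusted p = 0.649), and Sprr1a-positive cells 5.54 and 6.03 CPM (-0.17 ± 0.31, adjusted p = 0.661). The approximate interval of the last difference, -0.77 to 0.43, leaves room for changes of at least about those sizes. It is a normal approximation, which is narrow for 2 against 2 libraries. The share of NP1-like cells among neurons was 2.62 and 1.47% in sham and 4.54 and 4.13% in CCI.

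**Figure D2:**
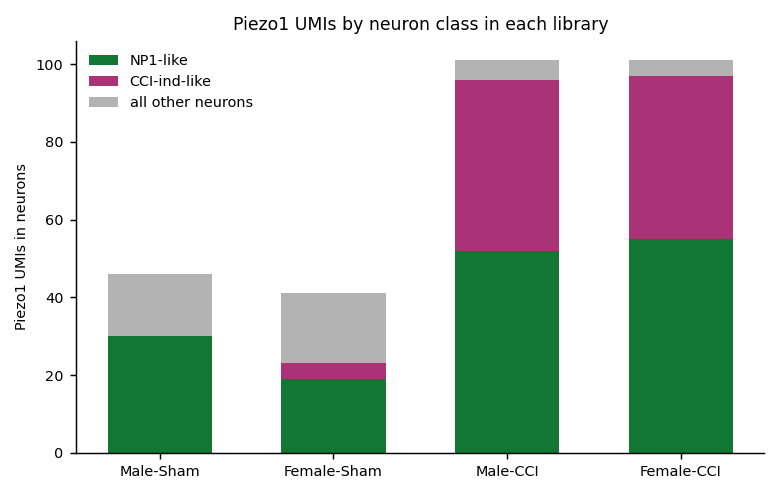
Piezo1 UMIs in neurons of each library, as stacked bars for NP1-like, CCI-ind-like and all other neurons. The sham bars reach 46 and 41 UMIs, and both CCI bars reach 101, of which 44 and 42 lie in CCI-ind-like clusters.

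CCI-ind-like neurons, of which 96.9 and 95.3% were Sprr1a-positive in the CCI libraries, kept some of these genes and had little of others. The 5 clusters differed in Piezo2. In the CCI libraries it was at 145 and 175 CPM in the cluster led by Crh, at 78.8 and 72.4 CPM in the one led by Anxa1, and at 28.3 and 30.9 CPM in the one led by Wfdc3. The cluster led by Ly6a had 39.1 and 28.6 CPM, and the one led by Gal, the galanin gene, had 1.01 and 2.67 CPM, near the level of PEP5-like neurons.

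Piezo1 split these clusters in another way. It was at 1.45 and 1.14 CPM in the Wfdc3-led and at 0.669 and 0.777 CPM in the Anxa1-led cluster, and the remaining 3 clusters gave 0 or 1 UMI each per CCI library. Tmem63a was at most 1.93 CPM in any of the 5 clusters in CCI. Tmem63c lay between 16.5 and 33.2 CPM there. The highest mean of the 10 other classes in Sprr1a-negative sham neurons was 16.2 CPM, in NP2-like neurons, of which the higher library had 16.6 CPM. The few CCI-ind-like neurons of the sham libraries had 19.4 and 22.5 CPM, within the range of the CCI clusters.

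Sprr1a-negative neurons of CCI mice were then compared with Sprr1a-negative neurons of sham mice, class by class, to see whether neurons without the injury mark differed. These cells were not free of counts of injury genes: Sprr1a was at 23.1 and 26.9 CPM against 0.475 and 1.201 CPM in sham. By class it lay between 18.9 and 35.5 CPM in the CCI libraries. Of SGC-like cells, 14.4 and 14.0% passed as Sprr1a-positive in CCI, and 0.552 and 1.40% in sham. Whether such counts came from RNA outside the cells was not tested. In the sum of the Sprr1a-negative neurons Atf3 was higher as well (170 and 203 against 112 and 126 CPM), but not in every class. It was called higher in PEP5-like (log2 fold change 0.62) and cLTMR-like neurons (0.58) only. In NP1-, NF1- and NF2-like neurons it was 1.99, 1.27 and 2.71 without a call. The NF2-like value came from the Female-CCI library, with 281 CPM of Atf3. The Male-CCI library had 28.1 CPM there, and the sham libraries 22.4 and 28.0 CPM. The log2 fold change of Atf3 was lower in the other classes. In NP2-, NP3-, PEP1-, PEP2- and PEP3/4-like neurons this change lay between -0.26 and -0.01. Over the 10 classes and the sum of all such neurons, 1 member was called in 1 class, Piezo2 in NP3-like neurons, where 2.53% of genes were called. Piezo2 was at 65.5 and 60.6 CPM in sham and at 87.7 and 101 CPM in CCI. The CCI libraries were higher without overlap (log2 fold change 0.53 ± 0.10, adjusted p = 0.00332). The size lay just above the limit. It was 0.48 without the Female-Sham library (adjusted p = 0.0595), 0.40 without the Female-CCI library (adjusted p = 0.0126), 0.45 with doublets kept, and 0.08 when cells with any Sprr1a UMI were left out, so the call did not hold in these settings.

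In direction, Piezo2 in Sprr1a-negative neurons was alike in most classes. Both CCI libraries lay above both sham libraries in 9 of the 10 classes, and PEP5-like neurons, which had the least Piezo2, were the exception. This order was not particular to Piezo2. It was found for Tmem63b in 8 and for Tmem120a in 7 of the 10 classes, and the opposite order in 0 for either gene. The share of all genes with such an order was not counted, so these counts do not set the genes apart. CPM values are scaled to library totals alone. With that scaling, 76.5% of the genes called over all Sprr1a-negative neurons were higher in CCI. By class this share lay between 45.5% in PEP1-like and 74.8% in NP3-like neurons. In cLTMR-like neurons, with its highest level, Piezo2 was at 565 and 539 CPM in sham and at 776 and 826 CPM in CCI (log2 fold change 0.49 ± 0.06, adjusted p = 0.00117). NP2-like neurons went from 226 and 209 to 291 and 316 CPM (0.46 ± 0.07, adjusted p = 0.000154). Both differences passed the p threshold and fell short of the 0.5 limit, as did PEP1-like neurons (0.24, adjusted p = 0.0189). In the remaining 5 of these 9 classes the log2 fold change lay between 0.19 and 0.48 with adjusted p above 0.05, and over all Sprr1a-negative neurons it was 0.23 ± 0.07 (adjusted p = 0.0584). In the same fits, genes called made up 1.57% in cLTMR-like, 1.08% in NF2-like, 1.39% in NF1-like, 6.67% in NP1-like, 4.40% in NP2-like, 5.42% in PEP1-like, 4.26% in PEP2-like, 3.48% in PEP3/4-like and 3.31% in PEP5-like neurons.

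By single clusters the picture for Piezo2 was less even. Of 21 clusters with enough cells, both CCI libraries were above both sham libraries for Piezo2 in 10 and below in 3. Tmem63b and Tmem120a were above in 12 and 11 of these clusters and below in 0. Such orders were counted for the members only, so the cluster counts do not set them apart from other genes. Tmem63a leaned the other way. It had a log2 fold change of -0.64 in NP1-like (40.2 and 29.8 to 29.9 and 16.1 CPM, adjusted p = 0.0821), -0.50 in PEP1-like (adjusted p = 0.0181) and -0.48 in NP2-like neurons (adjusted p = 0.0341), and none was called. Over all Sprr1a-negative neurons Tmem63a was at 8.00 and 7.64 CPM in sham and at 6.13 and 5.29 CPM in CCI (log2 fold change -0.48 ± 0.09, adjusted p = 0.0162), where 4.47% of genes were called. Tmem63b, Tmem63c, Tmem120a and Tmem150c had no call in any class.

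**Figure D3:**
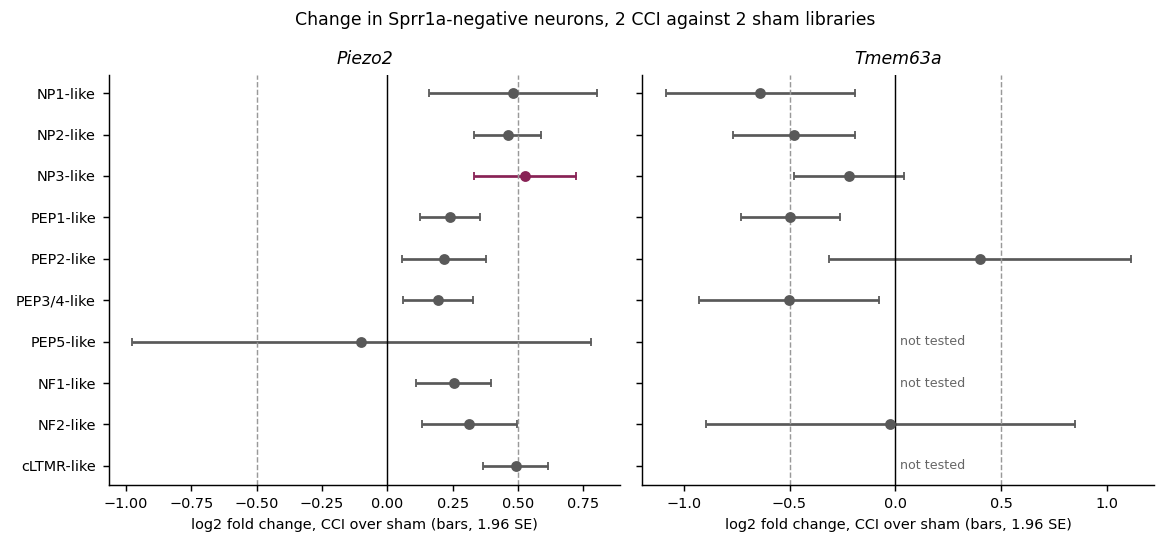
Log2 fold change of Piezo2 and Tmem63a in Sprr1a-negative neurons, CCI over sham, by class, with bars for the approximate 95% interval from the standard error and dashed lines at the limit of 0.5. Piezo2 lies above 0 in 9 of 10 classes and is called only in NP3-like neurons (0.53, coloured), and Tmem63a lies below 0 in 6 of the 7 classes where it was tested.

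Injured neurons were examined in the 3 classes that kept enough Sprr1a-positive cells under their own name: NP1-like (97 and 113 cells in the CCI libraries), NF2-like (79 and 80) and NF1-like (54 and 35). Too few were left in the PEP5-like class. Sprr1a-positive CCI neurons were compared with Sprr1a-negative sham neurons of the class, and with Sprr1a-negative neurons of the same CCI libraries. Large parts of the transcriptome moved: the first comparison called 42.8% of genes in NP1-like, 43.0% in NF2-like and 44.8% in NF1-like neurons, and the second 23.5%, 32.7% and 42.4%. Members called numbered 5 of 7, 4 of 6 and 2 of 5 in the first comparison, and 2 of 7, 4 of 6 and 2 of 5 in the second. Over all neurons the counts were 5 of 7 and 4 of 7, where 49.9% and 45.5% of all genes were called. Both comparisons share the Sprr1a-positive cells. Fold changes are relative to the typical gene, which in NF1-like neurons had a log2 fold change of -0.39 in the first comparison under scaling to library totals alone.

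Tmem63a was nearly lost from injured NP1-like neurons. From 40.2 and 29.8 CPM in sham it was at 2.33 and 2.38 CPM in Sprr1a-positive CCI cells (log2 fold change -3.85 ± 0.24, adjusted p = 3.51e-27). Within the CCI libraries, where Sprr1a-negative cells had 29.9 and 16.1 CPM, the log2 fold change was -3.20 ± 0.32 (adjusted p = 1.87e-05). No Sprr1a-positive library came near a Sprr1a-negative one.

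NF2-like neurons, with far less Tmem63a, had 29 UMIs in Sprr1a-negative sham and 3 in Sprr1a-positive CCI cells, a ratio of 0.0984 per UMI sequenced (counting interval 0.0192 to 0.318). The log2 fold change was -3.00 (adjusted p = 0.00249), and -2.95 within CCI (adjusted p = 0.0192). The call within CCI was lost with DESeq2 (adjusted p = 0.131) and with any Sprr1a UMI as the mark (-2.44, adjusted p = 0.241), where the value against sham was -1.34 (adjusted p = 0.0328). In NF1-like neurons the 7 UMIs of sham and 0 of injured cells allow no fold. Over all neurons Sprr1a-positive CCI cells had 0.692 and 1.01 CPM against 8.00 and 7.64 CPM in sham, a log2 fold change of -3.05 (adjusted p = 6.53e-07) that was -1.38 with any Sprr1a UMI as the mark.

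Tmem63b changed in opposite directions in different classes. In NP1-like neurons it rose from 56.0 and 61.9 CPM in sham to 102 and 96.7 CPM in Sprr1a-positive cells (log2 fold change 0.81 ± 0.11, adjusted p = 2.44e-10). In NF1-like neurons, its highest class, it fell from 196 and 192 CPM to 94.4 and 83.1 CPM (-0.78 ± 0.10, adjusted p = 5.11e-05). The injured cells of both classes lay between 83.1 and 102 CPM. NF2-like neurons had 115 and 126 CPM in sham and 88.0 and 99.98 CPM in injured cells, which was not called (-0.13, adjusted p = 0.316).

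Within the CCI libraries the same directions were called, 0.60 ± 0.12 in NP1-like (adjusted p = 0.00265) and -0.90 ± 0.11 in NF1-like neurons (adjusted p = 1.02e-15). The NF1-like fit gave extreme p-values for other genes too, such as Atf3 (adjusted p = 3.09e-188, against 0.000129 in NP1-like neurons). Its p-values should therefore not be compared with those of the other classes. A test of whether the Sprr1a-positive against Sprr1a-negative change differs between the 3 classes gave an adjusted p of 3.14e-06 for Tmem63b, where 22.8% of genes passed. With any Sprr1a UMI as the mark of injury, the NF1-like values were -0.21 against sham (adjusted p = 0.0450) and -0.49 within CCI (adjusted p = 0.108), neither called, and the adjusted p of the difference was at most 0.00304 in every setting run. The NP1-like call within CCI was lost at a Sprr1a value above 2 (0.45, adjusted p = 0.000859). Over all neurons Tmem63b was not called in Sprr1a-positive CCI against Sprr1a-negative sham neurons (log2 fold change 0.05, adjusted p = 0.447).

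Tmem63c was called higher in injured cells of all 3 classes against sham. It went from 13.0 and 16.0 to 25.8 and 22.9 CPM in NP1-like (log2 fold change 0.82, adjusted p = 9.41e-05), from 12.7 and 13.6 to 22.7 and 24.4 CPM in NF2-like (1.07, adjusted p = 0.000213), and from 9.16 and 11.9 to 22.8 and 20.9 CPM in NF1-like neurons (1.41, adjusted p = 9.38e-05). All 6 values of injured cells lay between 20.9 and 25.8 CPM. Over all neurons the log2 fold change was 1.34 against sham and 1.19 within CCI, and both were called.

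Within the CCI libraries Tmem63c was called in NF2-like (0.85, adjusted p = 0.00421) and NF1-like neurons (1.16, adjusted p = 4.42e-07), but not in NP1-like neurons (0.09, adjusted p = 0.7498). There the Sprr1a-negative cells were already at 26.0 and 21.6 CPM, above both sham libraries (0.72 ± 0.25 against sham, adjusted p = 0.0635). The difference between the classes had an adjusted p of 0.0138, of 0.0542 with library totals only and of 0.508 with any Sprr1a UMI as the mark. With that mark neither call within CCI held, at 0.10 in NF2-like (adjusted p = 0.946) and 0.64 in NF1-like neurons (adjusted p = 0.319), and the NF2-like call was also lost with DESeq2 (adjusted p = 0.0584).

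**Figure D4:**
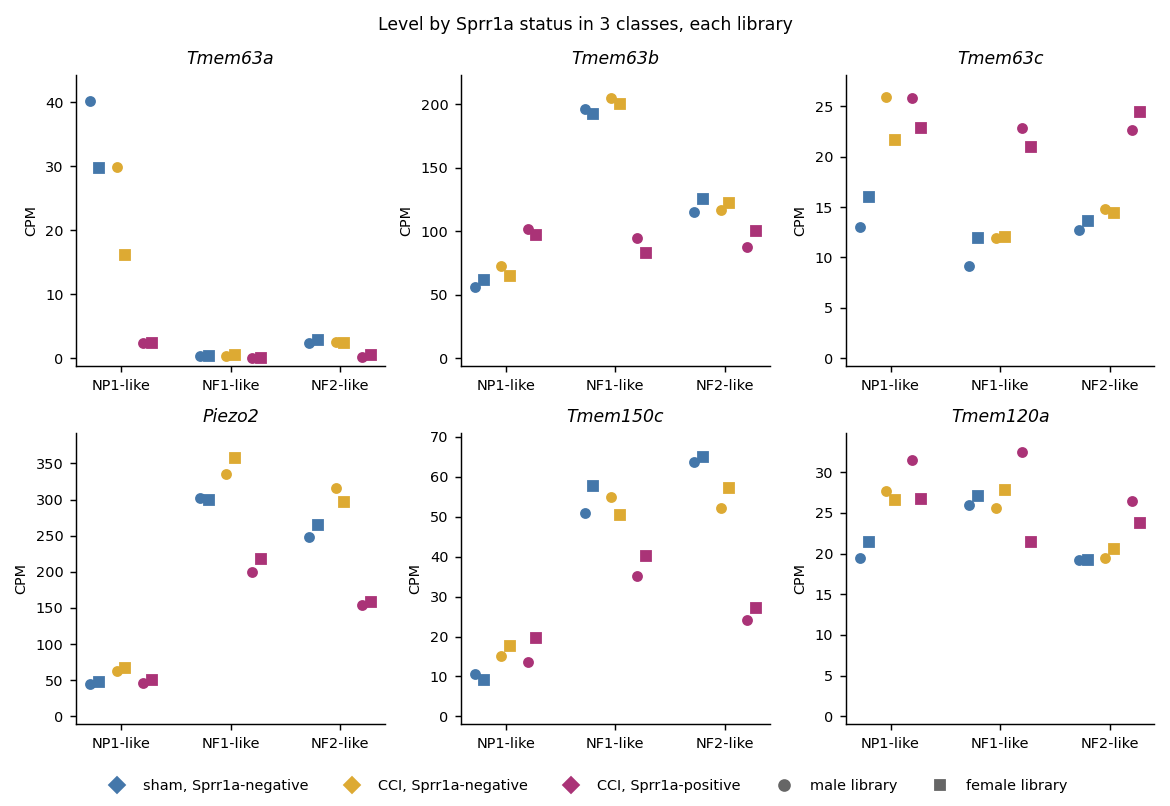
Level of 6 genes in NP1-like, NF1-like and NF2-like neurons by Sprr1a status. The y axes give CPM, each point is 1 library (circles male, squares female), blue is Sprr1a-negative sham, yellow Sprr1a-negative CCI and purple Sprr1a-positive CCI. Tmem63b is higher in injured NP1-like (102 and 96.7 CPM) and lower in injured NF1-like neurons (94.4 and 83.1 CPM) than in sham, and Tmem63a is at 2.33 and 2.38 CPM in injured NP1-like neurons.

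Tmem150c also differed between the classes (adjusted p = 0.00925 for the difference, and 0.786 with any Sprr1a UMI as the mark). In NF2-like neurons it fell from 63.7 and 64.9 CPM in sham to 24.1 and 27.3 CPM in injured cells (log2 fold change -1.10 ± 0.12, adjusted p = 1.34e-05), and within CCI, from 52.1 and 57.3 CPM, by 0.93 on the log2 scale (adjusted p = 0.000770). With any Sprr1a UMI as the mark the values were -0.63 against sham (adjusted p = 0.000539) and -0.41 within CCI (adjusted p = 0.526), so the call within CCI was lost. In NP1-like neurons, where it was low, it was higher in injured cells than in sham (13.7 and 19.5 against 10.6 and 9.17 CPM, log2 fold change 0.78, adjusted p = 0.00212). That call was lost without the Female-CCI library (0.49, adjusted p = 0.124), and within CCI the value was 0.06 (adjusted p = 0.869), where the Sprr1a-negative cells were at 15.2 and 17.8 CPM.

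Tmem120a was called higher in injured NP1-like (19.5 and 21.4 to 31.5 and 26.7 CPM, log2 fold change 0.57, adjusted p = 0.00169) and NF2-like neurons (19.3 and 19.2 to 26.5 and 23.7 CPM, 0.63, adjusted p = 0.00546). Both calls ended without the Male-Sham library, at 0.47 (adjusted p = 0.0650) and 0.61 (adjusted p = 0.0516), and without the Male-CCI library, at 0.48 and 0.49. The NF2-like call also ended with any Sprr1a UMI as the mark (0.44) and with library totals only (0.39). NF1-like neurons had 26.0 and 27.0 CPM in sham and 32.5 and 21.5 CPM in injured cells, which overlapped, and no class was called within CCI.

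Piezo2 in injured neurons depended on the cells set side by side. Over all neurons, Sprr1a-positive CCI cells had 77.8 and 72.1 CPM against 177 and 169 CPM in Sprr1a-negative sham cells (log2 fold change -1.05 ± 0.06, adjusted p = 1.61e-06) and 194 and 220 CPM in Sprr1a-negative CCI cells (-1.28 ± 0.08, adjusted p = 0.000410, where 45.5% of genes were called). These sums hold different classes: at most 0.505% of cLTMR-like and 4.12% of NP2-like neurons, both rich in Piezo2, were Sprr1a-positive in a CCI library. An injured neuron that fell into a CCI-ind-like cluster is not counted under its former class. A different mix of classes and a loss of Piezo2 in such neurons therefore cannot be told apart. With any Sprr1a UMI as the mark, the log2 fold change was -0.30 against sham and -0.31 within CCI, and neither was called.

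Within the classes that kept enough Sprr1a-positive cells under their own name, the changes were smaller. NP1-like neurons had 44.9 and 47.0 CPM of Piezo2 in sham and 46.0 and 50.01 CPM in injured cells (log2 fold change 0.12, adjusted p = 0.419, approximate interval -0.12 to 0.36). In NF2-like neurons it was at 248 and 265 CPM in sham and at 154 and 158 CPM in injured cells (-0.49 ± 0.09, adjusted p = 0.000934), just short of the size limit. Within the CCI libraries, where Sprr1a-negative NF2-like cells had 316 and 297 CPM, it was called lower (-0.81 ± 0.11, adjusted p = 0.000671), but not with any Sprr1a UMI as the mark (-0.46, adjusted p = 0.284). The change between classes did not pass as different (adjusted p = 0.0588).

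In NF1-like neurons the sign of the fitted Piezo2 change differed with the choice of cells. As a class, injured cells had 199 and 217 CPM against 302 and 299 CPM in sham (log2 fold change -0.21, adjusted p = 0.0461) and 335 and 358 CPM in Sprr1a-negative CCI cells (-0.46, adjusted p = 1.81e-05), neither past the size limit. Yet 51 of 54 and 35 of 35 injured NF1-like cells lay in the Pvalb-led cluster, which has less Piezo2 than the Cadps2-led one. Within the Pvalb-led cluster, chosen after the data were seen, Piezo2 was at 204 and 207 CPM in sham, 206 and 251 CPM in Sprr1a-negative CCI and 198 and 217 CPM in injured cells.

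There the groups overlapped, and the fitted log2 fold change was 0.38 against sham (adjusted p = 0.00790) and 0.17 within CCI (adjusted p = 0.370) (45.7% and 43.4% of genes called). The fitted values include the scaling to the typical gene. In the fit of the whole NF1-like class against sham, that scaling added 0.32 to the log2 fold change. With overlapping CPM values, a rise of Piezo2 in this cluster is not shown. Tmem63b and Tmem63c kept their calls within this cluster, with log2 fold changes of -0.87 (adjusted p = 0.000143) and 1.00 (adjusted p = 0.00136) against sham.

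Among 34 related genes that were listed by function (regulators of Piezo or stomatin-domain proteins, paralogues of the members, and other channels linked to mechanosensation), 32 could be tested over all neurons. With CCI 3 rose and 8 fell, against the same 27.8% of all genes. Their median log2 fold change was -0.11, and that of all genes -0.01. Of the 7 regulators tested, Stom, which encodes stomatin, rose from 5.54 and 5.22 to 19.6 and 18.0 CPM (log2 fold change 1.86, adjusted p = 6.48e-06), Mdfic, which encodes a Piezo-binding protein, rose by 1.72 from a low level, and Stoml2 fell by 0.54. No paralogue of the 3 tested was called.

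Of 22 other channels 1 rose and 7 fell. Tmc2, a hair-cell transduction gene, rose from 0.0554 and 0.0688 to 0.312 and 0.282 CPM. Lhfpl5, its partner in hair cells, fell from 47.2 and 47.5 to 26.9 and 29.5 CPM (log2 fold change -0.69). Among those that fell were the TRP channel genes Trpc6, by 1.24 on the log2 scale, and Trpv4, with a log2 fold change of -0.67 (adjusted p = 0.0494), a call lost with DESeq2 or its size factors and without any 1 of the Female-Sham, Male-CCI and Female-CCI libraries. The potassium channel gene Kcnk2 (TREK-1, -0.66) and the T-type calcium channel gene Cacna1h (-0.70) were lower too.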

How the data were processed

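Single cells were made and read by the authors with 10x Genomics 3′ chemistry, on mm10. The submitters' processing notes name Cell Ranger 2.1.1. The deposited UMI counts per gene and cell were not normalized, and UMIs were counted on the gene's strand. All 4 libraries were used. Cells under 1500 genes, above 10% mitochondrial counts or with the highest doublet scores (Scrublet in scanpy 1.11.5, expected rate 0.1) were left out. The number of doublets removed per library was the one the study lists, above that rate, as the tool's own threshold marked 0, 200, 1 and 0 cells. Seurat 5.3.0 integrated the libraries (3000 variable genes without the 8 members, 20 components, resolution 0.8). A cluster was named when at least 3 markers of a class were found in 10% of its cells and 2-fold higher than elsewhere, and 1 of them was among its top 10 genes or they made up 75% of the class markers. Of clusters with 3 such markers, the best-scoring class was taken, and 1 cluster of 263 cells stayed unnamed. Counts were summed per library and class, sums under 10 cells were left out, and edgeR 4.0.16 (TMM scaling, filterByExpr, robust quasi-likelihood test, Benjamini-Hochberg over all genes tested) was used. Within CCI, the library was a block. 3′ counts are not scaled to gene length, so levels of different genes were not compared. Sequences came from RefSeq windows of GRCm38.p6, where 7 of 8 genes were matched. All 8 members were named in each comparison that tested them, with the 3 genes most like each and called genes of the related list. Some genes that this rule names are not reported here. Members, lists and tests were chosen with earlier results of these data known. In simulated counts 81% of genes changed by 1 on the log2 scale were recovered for all neurons (17143 genes), 79% for Sprr1a-negative NP2-like neurons (12476 genes) and 56.6% within CCI for NP1-like neurons (10854 genes). Alternatives were DESeq2 1.42.0, other scaling, no filter, doublets kept, other clusterings and Sprr1a limits, sex as a block, and each library left out. An exact permutation test of 2 against 2 cannot go below p = 0.333, so none was used.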

Additional observations from a re-analysis of the deposited data

Results flagged for a closer look

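For 3 of the 7 tested genes, the change between Sprr1a-positive and Sprr1a-negative neurons within the CCI libraries differed between the NP1-like, NF2-like and NF1-like classes by a test of the difference itself (edgeR interaction, 22.8% of 12590 genes passed). Tmem63b had an adjusted p of 3.14e-06, with log2 fold changes of 0.60 in NP1-like, -0.18 in NF2-like and -0.90 in NF1-like neurons. Tmem150c had an adjusted p of 0.00925, with 0.06, -0.93 and -0.24 in the same order. Tmem63c had an adjusted p of 0.0138, with 0.09, 0.85 and 1.16. The Sprr1a-positive NF1-like cells lay almost entirely in the Pvalb-led cluster, where the changes of Tmem63b and Tmem63c within CCI were -1.03 and 1.047. The cause was not tested.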

How the results depend on the processing

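Of 713 comparisons of 50 single-gene values over 19 settings, none reversed, 680 kept their direction and side of the threshold and 33 lost the call, 14 of them with any Sprr1a UMI as the mark of injury. That mark is a loose one. A Sprr1a UMI was found in 83.5 and 80.1% of the neurons of the CCI libraries, whereas 52.1 and 49.1% had a value above 1. It thus leaves fewer Sprr1a-negative CCI neurons and adds cells with low Sprr1a counts to the injured ones. Whether such low counts came from RNA outside the cells was not tested. Piezo2 in Sprr1a-positive NF1-like neurons was not among these 50 values. Its fitted log2 fold change against sham was -0.21 in the class and 0.38 in the Pvalb-led cluster, where the CPM values overlapped. Over all neurons 3 members were called in every setting run, and the related genes called ranged from 10 to 16 around 11. For Sprr1a-positive CCI against Sprr1a-negative sham neurons 16 calls were made over 4 sets of cells, with a range of 12 to 21. In Sprr1a-negative neurons the single call became 3 without a filter on low counts, 3 with any Sprr1a UMI, 5 with a Sprr1a value above 2, 3 with library totals only, and 0 to 5 when each library was left out. A lone library is then assumed to vary like the others. Within the CCI libraries 12 calls became 6, and the difference between classes went from 3 calls to that of Tmem63b alone, at 1, with any Sprr1a UMI. The causes were not tested. Replicate numbers stand for sex alone, and the male libraries' deviations correlated at r = 0.313 over 8207 genes; with sex as a replicate block the Sprr1a-negative calls were 3, and without the library block the calls within CCI were 13. With library totals only, the median log2 fold change of all genes was -0.39 in NF1-like, -0.25 in NF2-like and -0.16 in all neurons for Sprr1a-positive CCI against Sprr1a-negative sham cells, and -0.32, -0.17 and -0.18 within CCI. The share of higher among called genes was 26.0% in place of 48.4% in NF1-like and 31.3% in place of 48.2% in NF2-like neurons (within CCI 26.1% in place of 47.4% and 32.4% in place of 46.6%). Alternatives that limit NF1-like neurons to the Pvalb-led cluster, leave out cells whose barcode is kept in more than 1 library, or use library totals only were chosen after seeing the data. Low counts limited Piezo1 outside NP1-like neurons, Tmem63a in NF1-like and cLTMR-like neurons, and Stoml3 throughout.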
